A study of Drosophila melanogaster with 7 samples.

Results

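The Greek-letter trypsins are secreted digestive proteases of the fly gut. The 10 genes described here, alphaTry, betaTry, gammaTry, deltaTry, epsilonTry, zetaTry, etaTry, thetaTry, iotaTry and lambdaTry, were chosen by their names in the deposited gene table, and all 10 were found among its 24204 features. The libraries come from midgut RNA of Drosophila melanogaster virgin females of the strain sg-Gal4,UAS-GFP, kept in hermetic cabinets at 10% oxygen (hypoxia), 20% oxygen (normoxia) or 40% oxygen (hyperoxia) and sampled at day 53. Every group carries the same strain, so no genotype differs between them. Batch 1 of the labels holds 2 libraries at 10% and 2 at 20%, and batch 2 holds 1 library at each of 10%, 20% and 40%. The labels do not say how many guts went into a library or whether replicates are separate cultures. The p-values reflect spread among libraries alone, and that spread may be technical.

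Trypsins cut proteins after the basic residues lysine and arginine. They are made as inactive precursors in enterocytes, the absorptive cells of the midgut epithelium, and are secreted into the gut lumen, where removal of a short leading peptide activates them. Together with chymotrypsin-like enzymes, among them the Jonah family, they start protein digestion in the fly, and peptidases that trim peptides from their ends and transporters of the gut wall complete it.

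All 10 genes lie on the right arm of chromosome 2 in a single cluster (assembly BDGP6.54, arm 2R, positions 11336840 to 11357537), which spans 20.7 kb. From the left end the order is lambdaTry (11336840 to 11337791), zetaTry (11339186 to 11340132), etaTry (11340513 to 11341423), thetaTry (11341714 to 11342760), alphaTry (11344260 to 11345119) and epsilonTry (11345237 to 11346066). It goes on with betaTry (11346325 to 11347395), gammaTry (11349061 to 11349870), deltaTry (11355319 to 11356128) and iotaTry (11356720 to 11357537). In the annotation 4 of them lie on the plus strand and 6 on the minus strand, and 3 further trypsin-like genes, kappaTry, CG30025 and CG30031, sit between them. Each transcript is 1 exon of 810 to 1071 bases with no intron, and encodes 252 to 280 residues. betaTry has 2 annotated transcripts, of which the longer took at most 0.408% of its reads in any library. No member overlaps another gene on its own strand. deltaTry overlaps CG13202 on the opposite strand. The labelled kit is strand-specific, but whether the strand was used in assigning reads is not stated.

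The copies are alike enough that reads cannot always be assigned. The estimated read numbers were whole in all 7 libraries for 6 members (epsilonTry, zetaTry, etaTry, thetaTry, iotaTry and lambdaTry), and had fractions for the other 4, alphaTry, betaTry, gammaTry and deltaTry, as well as for CG30025 and CG30031. The split of reads within the last set of genes is therefore an estimate. Sums over alphaTry with betaTry and over gammaTry with deltaTry, CG30025 and CG30031 are given beside the single genes in some of the comparisons. CG30031 was estimated at 318 to 442 reads in batch 1 and at 0 in every library of batch 2, where the 3 other near-identical genes had reads, so its value is uncertain.

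The libraries held 19.22 to 22.22 M estimated reads (M, mega). Transcripts of the mitochondrial genome took 4.1% to 4.68% of reads in batch 1, 61.04% and 63.95% in batch 2 at 10% and 20% oxygen, and 71.03% at 40%, which left 20.64 to 21.22 M reads outside it in batch 1 and 5.73 to 7.49 M in batch 2. The level of a gene is given as TMM-scaled CPM, counts relative to the library total after edgeR's scaling for library composition, with scaling factors from 0.457 in the 40% library to 1.63. Effective lengths gave mean fragments between 272.2 and 279.7 bases for batch 1, and for batch 2 of 244.3 (10%), 253.7 (20%) and 229.3 bases (40%). Summed muscle marker levels (16 genes) were 778 to 1080 CPM in batch 1 and 11500 to 13500 CPM in batch 2. The 4 fixed enterocyte markers (nub, Myo31DF, Myo61F and mex1) were detected in every library and summed to 1210 to 1320 CPM in batch 1 and 892 to 962 CPM in batch 2. Singly they went different ways between batches. mex1 was at 113 to 141 CPM in batch 1 and 382 to 590 CPM in batch 2. Myo61F was at 854 to 930 against 233 to 409 CPM, and Myo31DF at 181 to 193 against 72.7 to 92.9 CPM. The batches overlapped for nub (50.1 to 55.0 against 37.6 to 65.9 CPM). Differences between batches, and any difference that follows them, cannot be told apart from these differences in library makeup. In bulk tissue fewer trypsin-making cells and less trypsin RNA per cell cannot be told apart either.

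Trypsin transcripts were among the most abundant of the midgut. At 20% oxygen the 10 genes took 6.07% of the reads outside the mitochondrial genome in replicate 1 and 5.79% in replicate 2 of batch 1, and 3.88% in batch 2. At 10% oxygen they took 5.94% and 6.20% in batch 1 and 3.83% in batch 2, and at 40% oxygen 2.44% (exact Clopper-Pearson 95% interval 2.42% to 2.45%, which covers counting error only). The 10% and 20% libraries of batch 1 overlapped, those of batch 2 lay close together, and the 40% library lay below all others. The log2 ratio of the share at 40% to that at 20% in batch 2 was -0.67, against 0.03 for 10% to 20% in batch 1 and -0.02 in batch 2.

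**Figure D1:**
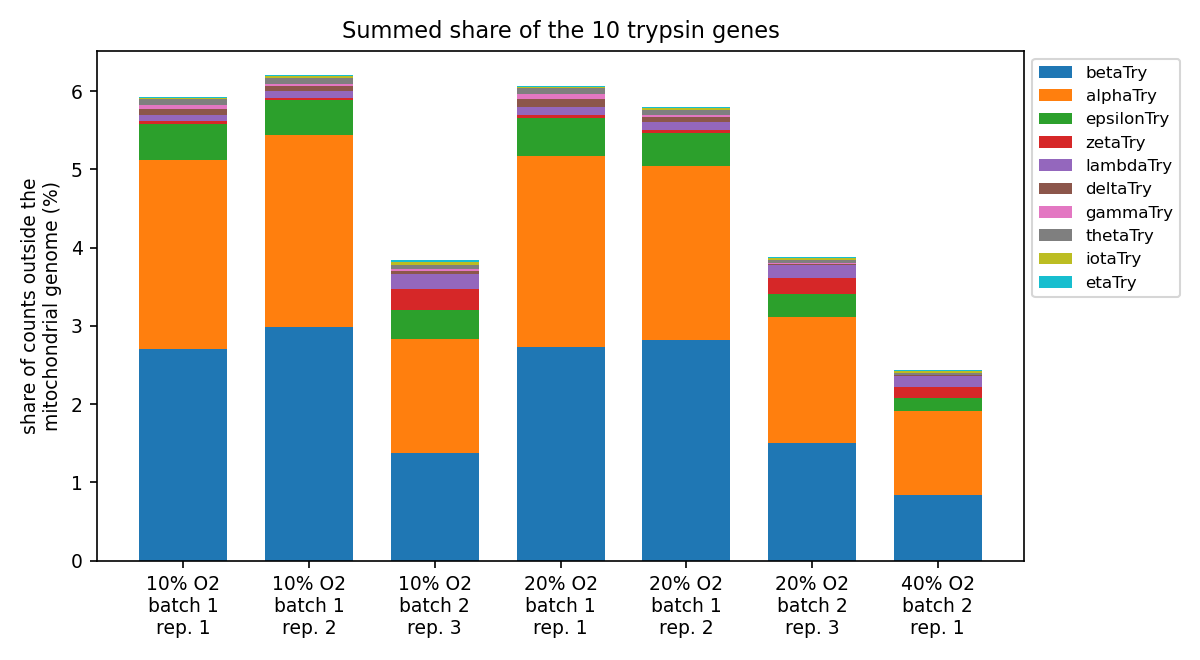
Share of counts outside the mitochondrial genome (percent, y axis) taken by each of the 10 trypsin genes, stacked, in each of the 7 libraries (x axis, named by oxygen, batch and replicate). betaTry and alphaTry make up most of every bar, and the bar of the 40% library, at 2.44%, is the lowest.

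On the TPM scale, which corrects for transcript length and so allows genes to be compared, betaTry and alphaTry led in every library. betaTry stood at 33600 to 37600 TPM in batch 1 and alphaTry at 25800 to 28400 TPM, with ranges that did not overlap. They ranked between the second and the fifth most abundant of all 24204 features in that batch, at ranks 14 to 20 in batch 2 at 10% and 20% oxygen, and at 26 (alphaTry) and 30 (betaTry) in the 40% library. In batch 2 both were at 2910 to 7010 TPM and their ranges overlapped. epsilonTry came next throughout, with 5130 to 5760 TPM in batch 1 and 544 to 1750 TPM in batch 2. The other members lay at 163 to 1410 TPM in batch 1. There deltaTry (728 to 1410) and lambdaTry (809 to 937) overlapped, as did thetaTry (559 to 725) and gammaTry (366 to 770), and gammaTry and zetaTry (362 to 429), while iotaTry (210 to 233) and etaTry (163 to 186) formed the low end.

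The mix within the family differed between the batches. In batch 1 alphaTry and betaTry together made up most of the summed trypsin reads, with 38.4% to 40.6% for alphaTry and 45.0% to 48.7% for betaTry, and zetaTry took 0.578% to 0.717%. In batch 2 zetaTry took 7.01% of the sum at 10% oxygen, 5.11% at 20% and 5.98% at 40%. lambdaTry took 1.35% to 1.59% in batch 1 and 5.25%, 4.17% and 5.49% in batch 2. The share of betaTry was 35.7%, 38.6% and 34.7% there. alphaTry took 37.9%, 41.4% and 44.1% in the same order. The 40% library was the only one of the 7 in which alphaTry exceeded betaTry on the TPM scale (3440 against 2910 TPM). In batch 2 the 2 genes also lay close at 10% (6590 against 6710 TPM) and at 20% (6930 against 7010 TPM). The split of reads between the 2 is an estimate.

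For the 2 major trypsins no difference beyond the replicate spread was detected between 10% and 20% oxygen. alphaTry stood at 14537 and 14502 CPM in batch 1 at 10% oxygen, against 15472 and 13008 CPM at 20%, and at 9842 against 9651 CPM in batch 2. Its fitted log2 fold change was 0.03 (SE 0.10, 95% interval -0.24 to 0.29, edgeR adjusted p = 0.988). betaTry stood at 16340 and 17660 CPM against 17356 and 16512 CPM in batch 1 and at 9269 against 9008 CPM in batch 2. Its fitted value was 0.02 (SE 0.09, interval -0.21 to 0.25). The libraries at 10% and 20% overlapped for both genes in batch 1 and differed by less than 0.05 log2 units in batch 2 on the TMM scale. As a share of reads outside the mitochondrial genome the ratio in batch 2 was -0.14 for alphaTry and -0.13 for betaTry, with 20% above 10%.

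Of the 10 trypsins 0 passed edgeR's test of 10% against 20% oxygen, which called 0 of all 9278 features tested (0%). At an unadjusted p below 0.05 it had 1 trypsin, against 6.29% of all features, while DESeq2 called 0 trypsins among its 124 calls (1.34% of features) and limma voom 0 with its 1 call. In the fit 9 of the 10 trypsins were above 0, and of all features 47.9% were below 0. The median log2 fold change of the trypsins was 0.10, and that of all features 0.01. In a fit of batch 1 alone 6 of the 10 trypsins were below 0, with a median of -0.08, against -0.01 over all features.

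thetaTry was the member with the unadjusted p below 0.05. It stood at 468 and 489 CPM at 10% oxygen in batch 1 against 427 and 372 CPM at 20%, and at 305 against 183 CPM in batch 2. Its 10% library or libraries lay above those at 20% in both batches. The log2 fold change was 0.42 (SE 0.13, interval 0.09 to 0.75, unadjusted p = 0.0212, edgeR adjusted p = 0.776). On the TMM scale both 10% libraries of batch 1 lay above both 20% libraries for this 1 trypsin, as they did for 18.9% of features, and below both for zetaTry and lambdaTry, as for 20.2% of features. Per read outside the mitochondrial genome 2 trypsins were above and 2 below, and on the TPM scale 3 and 3. The shares of all features on these other scales were not computed, so these counts cannot be judged against them.

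The small members pointed one way in batch 2 and scattered about 0 in batch 1. epsilonTry stood at 2743 and 2626 CPM against 3067 and 2453 CPM in batch 1, where the groups overlapped, and at 2494 against 1824 CPM in batch 2. zetaTry stood at 231 and 212 CPM against 276 and 233 CPM in batch 1 and at 1818 against 1191 CPM in batch 2. lambdaTry stood at 493 and 497 against 608 and 538 CPM, and at 1362 against 971 CPM. For these last 2 genes the groups of batch 1 did not overlap and the order was opposite in batch 2.

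iotaTry stood at 107 and 99 CPM at 10% oxygen and 121 and 103 CPM at 20% in batch 1, and at 300 against 162 CPM in batch 2. etaTry stood at 105 and 103 against 109 and 89 CPM, and at 138 against 113 CPM in batch 2. In batch 1 the groups overlapped for both. Between the replicates of batch 1 gammaTry and deltaTry varied most. gammaTry stood at 268 and 171 CPM against 395 and 192 CPM in batch 1 and at 173 against 67 CPM in batch 2. deltaTry stood at 472 and 339 against 723 and 376 CPM and at 237 against 140 CPM. In both groups of batch 1 replicate 1 lay above replicate 2 for this pair, by 0.48 to 1.04 log2 units. That exceeds in size the log2 differences between oxygen levels there of -0.42 and -0.44. Summed with CG30025 and CG30031, the pair stood at 785 and 570 against 1180 and 621 CPM in batch 1 and at 431 against 236 CPM in batch 2.

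In batch 2 the 10% library lay above the 20% library for all 10 trypsins on the TMM scale, as for 57.4% of all features. As a share of reads outside the mitochondrial genome it did so for 8 of 10. The share of all features on that scale was not computed. On the TMM scale the median log2 ratio of the trypsins was 0.55, against 0.07 over all features, and in batch 1 it was -0.08, against -0.01. The test of whether the oxygen difference itself differed between batches passed for 0 trypsins by edgeR, which called 0 of 9278 features (0%), with 4 trypsins at an unadjusted p below 0.05, against 10.5% of all features. The 4 were iotaTry (difference 1.01 log2 units, SE 0.20, edgeR adjusted p = 0.372), lambdaTry (0.70, SE 0.16, edgeR adjusted p = 0.402), zetaTry (0.81, SE 0.21) and thetaTry (0.48, SE 0.17). DESeq2 called iotaTry and lambdaTry in this test (adjusted p = 0.012 and 0.0448) among 130 features (1.4%), and limma voom called none of the 9278.

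**Figure D2:**
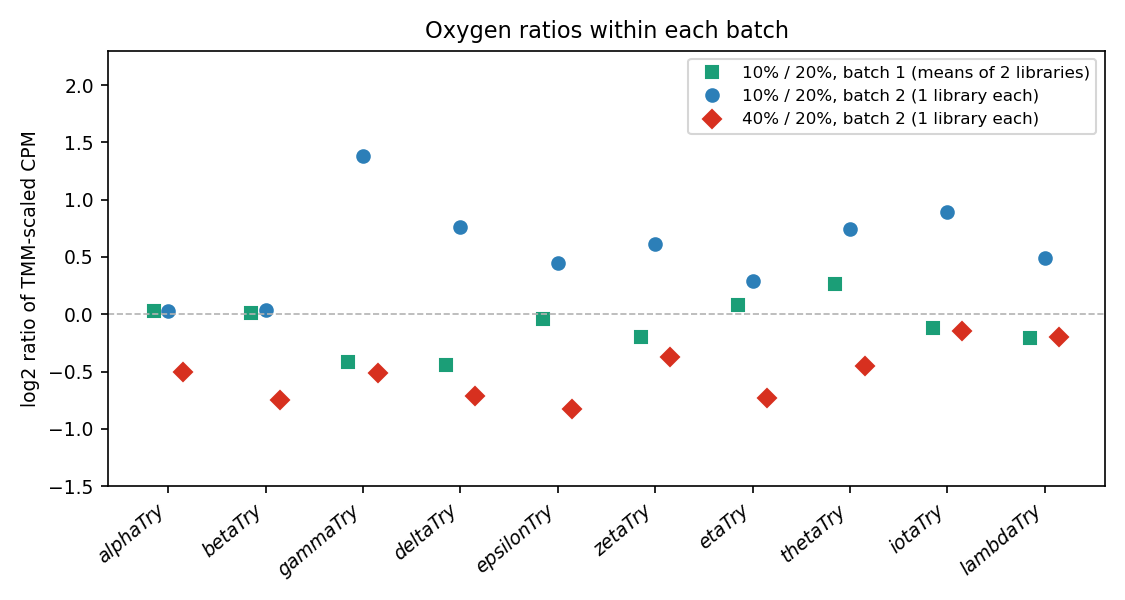
Log2 ratios of TMM-scaled CPM (y axis) for the 10 trypsins (x axis), with squares for 10% over 20% oxygen in batch 1 (means of 2 libraries), circles for the same ratio in batch 2 and diamonds for 40% over 20% in batch 2 (1 library each, no error). The squares lie between -0.44 and 0.26, and every circle lies above and every diamond below 0.

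Between the batches some trypsins were called higher and some lower, as were features at large. The batch term of the fit of the 6 libraries at 10% and 20% oxygen, a comparison chosen after the levels had been seen, passed for 7 of the 10 trypsins, in a test that called 55.6% of all features. It was higher in batch 2 for zetaTry, lambdaTry and iotaTry (28.7% of features were called higher) and lower for alphaTry, betaTry, thetaTry and deltaTry (26.9% were called lower). zetaTry rose by 2.67 log2 units (SE 0.20, edgeR adjusted p = 0.000371), from 212 to 276 CPM in batch 1 to 1191 and 1818 CPM in batch 2. lambdaTry rose by 1.14 (SE 0.17) and iotaTry by 1.08 (SE 0.24). betaTry fell by 0.87 (SE 0.10, edgeR adjusted p = 0.00136), thetaTry fell by 0.86 (SE 0.14), deltaTry fell by 1.31 (SE 0.42) and alphaTry fell by 0.54 (SE 0.11).

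The deltaTry call was lost when its near-identical copies were summed (-1.22, edgeR adjusted p = 0.0603) and without replicate 3 at 20% (-0.76, edgeR adjusted p = 0.271), and also without replicate 1 at 10% (adjusted p = 0.102, edgeR) or replicate 2 at 20% (0.0672). The alphaTry call was lost without replicate 3 at 10% (adjusted p = 0.0652, edgeR) or at 20% (0.0674), with its value still -0.54. On the log2(TPM + 1) scale the median of all features was -0.96, and 6917 of 9278 features were called lower and 769 higher. There 7 trypsins were called lower and zetaTry was called higher. In the same setting lambdaTry and iotaTry stood at -0.34 and -0.42, uncalled but above that median. Not called by edgeR were epsilonTry (-0.33, SE 0.16), gammaTry (-1.12, SE 0.56) and etaTry (0.32, SE 0.11, edgeR adjusted p = 0.0552).

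Along the cluster the called increases belonged to its outer genes, lambdaTry and zetaTry on the left and iotaTry at the right end, and the called decreases to thetaTry, alphaTry, betaTry and deltaTry between them. kappaTry, which lies between lambdaTry and zetaTry, stood at 266 to 300 CPM in batch 1 and at 307 and 236 CPM in batch 2 at 10% and 20% (log2 fold change -0.04, SE 0.12). This order along the chromosome was noted from the values and was not tested. The summed markers of muscle and of trachea (17.7 to 22.4 CPM in batch 1, 161 to 193 CPM in batch 2) moved with the batch as well. So did those of fat body (239 to 666 CPM in batch 1, 1030 to 2250 CPM in batch 2), haemocytes (1.3 to 1.97 against 10.5 to 21.4 CPM) and, in the other direction, copper cells (47.1 to 53.4 against 9.07 to 28.5 CPM) and proventriculus and crop (17.3 to 22.5 against 3.43 to 7.95 CPM). The part of these tissues in the trypsin differences was not tested.

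**Figure D3:**
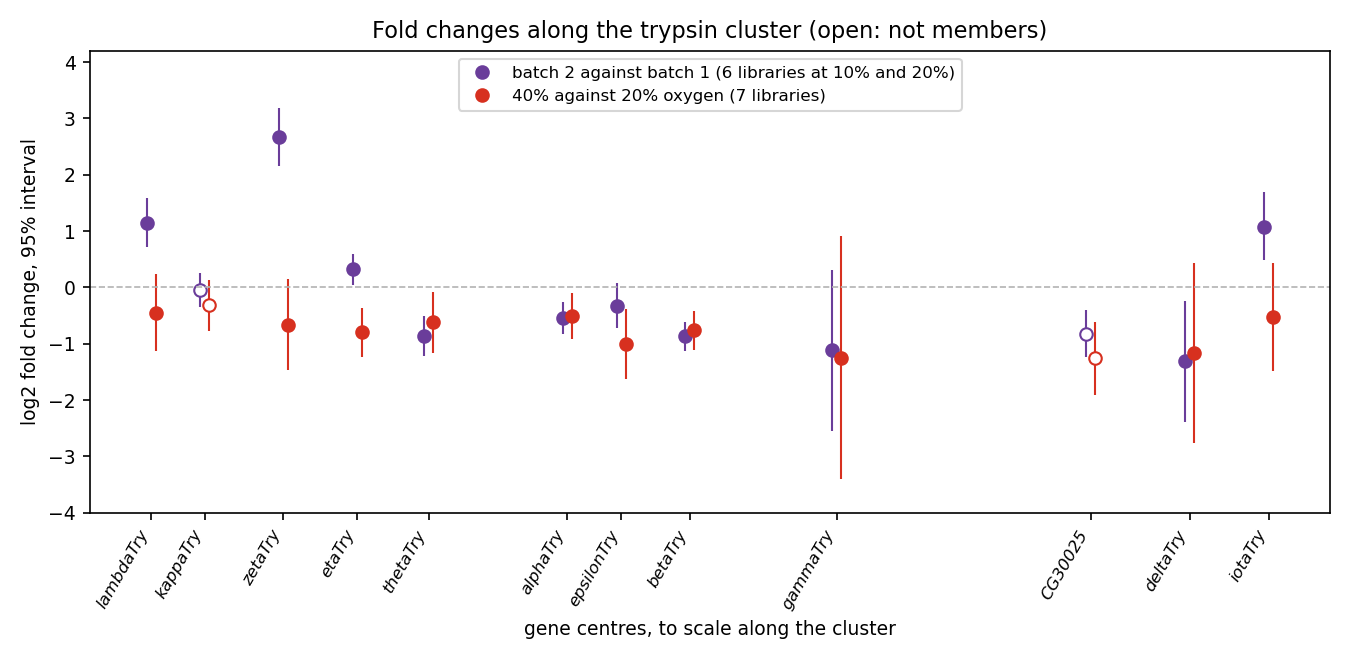
Log2 fold changes with 95% intervals from edgeR (y axis) at the gene centres of the trypsin cluster, drawn to scale (x axis), for batch 2 against batch 1 (purple) and 40% against 20% oxygen (red), with filled points for the 10 trypsins and open points for kappaTry and CG30025. The purple points are above 0 for lambdaTry, zetaTry, etaTry and iotaTry, and all red points are below 0.

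Each of the 10 trypsins had its lowest level of batch 2 in the 40% library, as did 39.3% of all features. That library is the only one at 40% oxygen. betaTry stood at 5356 CPM against 9008 CPM at 20% and 9269 CPM at 10% in batch 2. alphaTry stood at 6815 CPM against 9651 and 9842 CPM. epsilonTry stood at 1028 CPM against 1824 and 2494 CPM. These 3 most abundant trypsins were also below every library of batch 1, as were etaTry, thetaTry, gammaTry and deltaTry. The batch 2 libraries at 10% and 20% oxygen already lay below all of batch 1 for alphaTry, betaTry, thetaTry and deltaTry.

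Against 20% oxygen the fitted log2 fold change of betaTry was -0.76 (SE 0.13, 95% interval -1.11 to -0.42, edgeR adjusted p = 0.0568). For etaTry, at 68 CPM against 113 CPM, it was -0.80 (SE 0.17, edgeR adjusted p = 0.0764), for epsilonTry -1.0 (SE 0.24, edgeR adjusted p = 0.0983) and for alphaTry -0.50 (SE 0.16, edgeR adjusted p = 0.162). thetaTry, at 134 CPM against 183 CPM, had -0.62 (SE 0.21, edgeR adjusted p = 0.181). These 5 were the trypsins with an unadjusted p below 0.05, which 21% of all features had. edgeR called 0 of 10 trypsins against 3.17% of features (1.76% lower and 1.41% higher), limma voom called 0, and DESeq2 called 4, alphaTry, betaTry, epsilonTry and etaTry, against 9.65% of features. The median over the 10 trypsins was -0.71, against -0.03 over all 10068 features tested.

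For the remaining members the fit and the direct ratio within batch 2 differed. The ratio of 40% to 20% in batch 2 was -0.37 for zetaTry (924 against 1191 CPM), -0.20 for lambdaTry (848 against 971 CPM) and -0.15 for iotaTry (145 against 162 CPM), while the fit gave -0.66 (SE 0.32), -0.45 (SE 0.27) and -0.53 (SE 0.38). gammaTry, at 47 against 67 CPM, had a ratio of -0.51 and a fitted value of -1.25 (SE 0.85), and deltaTry, at 86 against 140 CPM, had -0.71 and -1.16 (SE 0.63). The fit takes the batch difference from the libraries at 10% as well as at 20%, and without replicate 3 at 10% it gave -0.36, -0.19, -0.15, -0.51 and -0.71 for these 5 genes. The 95% intervals of all 5 included 0.

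Summed close copies did not pass either. alphaTry with betaTry stood at 12171 CPM at 40% oxygen against 18659 CPM at 20% and 19111 CPM at 10% in batch 2, and as 1 feature of the fit had a log2 fold change of -0.62 against 20% (edgeR adjusted p = 0.0936). gammaTry, deltaTry, CG30025 and CG30031 summed to 144 CPM against 236 and 431 CPM, with -1.21 in the fit (edgeR adjusted p = 0.370).

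The comparison of 40% with 10% oxygen shares the 40% library with the one above, and its values are given for the members side by side. The fitted log2 fold changes were -0.53 for alphaTry, -0.78 for betaTry, -1.12 for epsilonTry, -0.95 for etaTry and -1.04 for thetaTry, and from -0.47 (lambdaTry) to -1.40 (gammaTry) for the others. Without replicate 3 at 10% they were 0.02 for lambdaTry, -0.09 for gammaTry, -0.27 for deltaTry, -0.16 for zetaTry and -0.03 for iotaTry, and the median of the 10 was -0.40 in place of -0.86. edgeR called 0 of 10 trypsins, with adjusted p from 0.0688 for betaTry to 0.425 for gammaTry, against 1.16% of features called (0.715% lower and 0.447% higher), and 5 trypsins had an unadjusted p below 0.05, as had 19.7% of features. limma voom called 0 of the 10. DESeq2 called 5, the 4 named above and thetaTry, against 8.09% of features.

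On the TMM scale the order in batch 2 was 10% above 20% above 40% for all 10 trypsins, as for 21% of features, each level resting on 1 library. The mitochondrial share of reads ran in the opposite order, 61.04%, 63.95% and 71.03% at 10%, 20% and 40%, and the mean fragment was shortest in the 40% library; the part of either in these values was not tested. Relative to the 200 tested features nearest in transcript length, the 40% against 20% values were -0.65 for betaTry, -0.93 for epsilonTry and -0.45 for alphaTry. Of the enterocyte markers Myo61F, a brush-border myosin, stood at 233 CPM at 40% against 373 and 409 CPM, Myo31DF at 72.7 against 88.8 and 92.9 CPM, nub at 65.9 against 48.1 and 37.6 CPM and mex1 at 590 against 382 and 391 CPM. Summed copper cell markers were 28.5, 18.5 and 9.07 CPM at 10%, 20% and 40% in batch 2, and summed fat body markers 2250, 1260 and 1030 CPM, in the order of the trypsins. Muscle markers (13500, 11900 and 11500 CPM) and those of proventriculus and crop (7.95, 6.69 and 3.43 CPM) ran in that order too. Summed markers of enterocytes, progenitors, enteroendocrine cells, trachea, ovary, Malpighian tubule and haemocytes did not. The part of these cell types in the trypsin values was not tested.

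**Figure D4:**
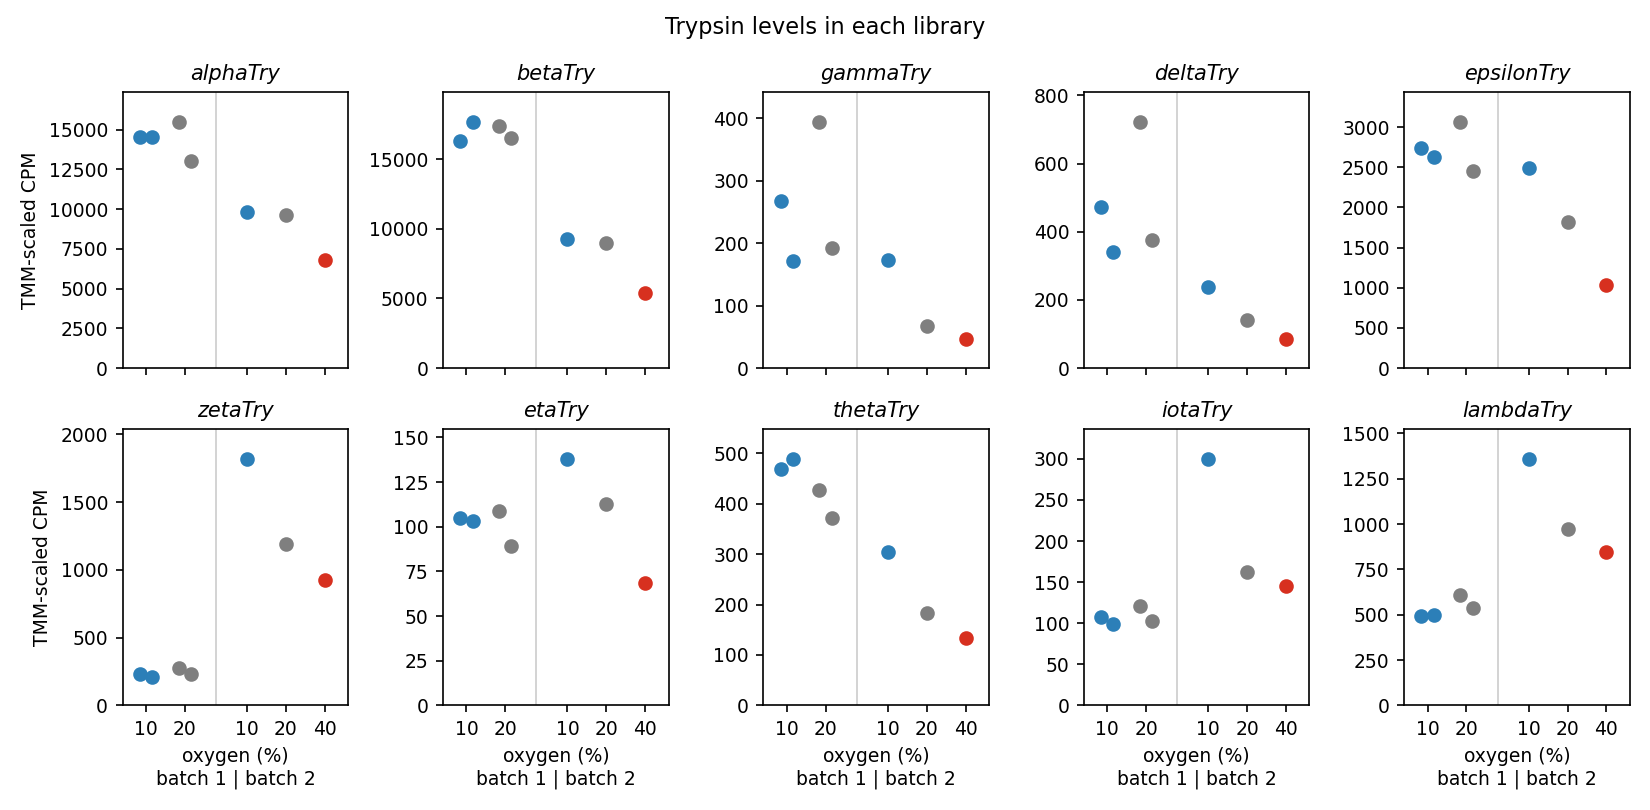
TMM-scaled CPM (y axis, linear from 0, 1 panel per trypsin) of every library by oxygen (x axis), with batch 1 left and batch 2 right of the grey line. The 40% point (red) is the lowest of batch 2 in each panel, and zetaTry, lambdaTry and iotaTry stand higher in batch 2 than in batch 1.

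**Figure D5:**
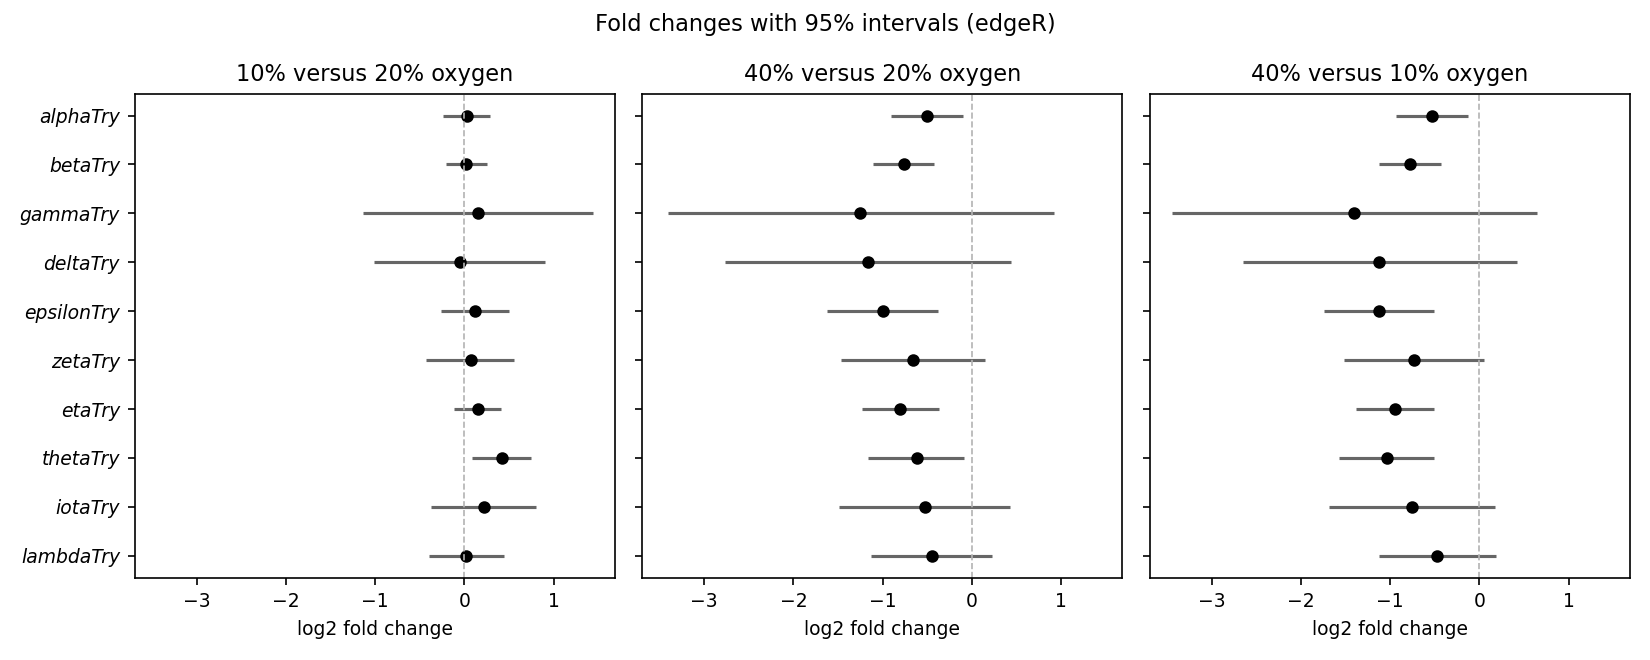
Fitted log2 fold changes (x axis) with 95% intervals from edgeR for the 10 trypsins in the comparisons of 10% with 20%, 40% with 20% and 40% with 10% oxygen. Values at 10% run from -0.05 to 0.42, all values at 40% lie below 0, and gammaTry and deltaTry have the widest intervals.

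Other genes of protein digestion are given from lists set by name, and their values at 40% oxygen rest on the same single library. The Jonah proteases, chymotrypsin-like and elastase-like partners of the trypsins, had 8 of 16 members called lower and 0 higher at 40% against 20% oxygen in edgeR's test, which called 1.76% of all features lower, with a median of -1.84. Jon25Bi, at 570 CPM against 3950 CPM in batch 2 at 20%, was one of them (-2.85, SE 0.28, edgeR adjusted p = 0.0331). Whether Jonah genes and trypsins differed from each other was not tested. In the list of exopeptidases, which trim peptides from their ends, 14 of 17 tested genes were below 0 and 3 above (median -1.15). Of all features 52.7% were below 0 in this fit. CG31343, a predicted aminopeptidase, stood at 406 CPM against 1260 CPM (-1.74, SE 0.16, edgeR adjusted p = 0.0331), and CG12374, a predicted metallocarboxypeptidase, at 2160 against 7740 CPM (-1.91, SE 0.29).

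Of 26 tested other trypsin-like and serine proteases 18 were below 0 and 8 above, with a median of -0.63. CG18179, which edgeR called, had -1.13 (SE 0.17). The neighbours of the trypsins did not pass: kappaTry had -0.32 (SE 0.18) and CG30025 -1.26 (SE 0.26, edgeR adjusted p = 0.0704). Among 14 tested peptide and amino acid transporters 10 were below 0 and 4 above. Those that edgeR called were slif, a cationic amino acid transporter (-1.34, SE 0.11), sbm, a predicted amino acid transporter (-1.38, SE 0.17), and CG2930, a predicted oligopeptide transporter (-1.25, SE 0.12). Of 17 factors known to act on digestive enzyme genes 8 were above 0 and 9 below. One that edgeR called was foxo, the transcription factor restrained by insulin signalling, at 74.7 CPM against 38.8 CPM (1.02, SE 0.12). The other factors did not pass. Each of the edgeR calls in these lists was lost without replicate 1 or 2 at 10%, any replicate at 20% or the batch term. Without replicate 3 at 10% few genes passed. The calls also differed with the method. DESeq2 called more genes than edgeR in each list, in both directions among the other proteases. On the log2(TPM + 1) scale no factor was called, foxo included. Against 10% oxygen, where edgeR called 1.16% of all features, the called counts were 5 of the Jonah genes, 3 exopeptidases and 3 transporters, all lower, foxo higher, and 0 of the other proteases. With DESeq2 size factors, with no batch term or without any 1 library at 10% or 20% these counts were 0, except for 2 exopeptidases without replicate 3 at 20%. At 10% against 20% oxygen 0 genes of any of these lists were called, with medians of -0.18 for Jonah genes, -0.06 for exopeptidases, 0.06 for other proteases and -0.21 for transporters.

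After each batch's mean was subtracted, the members had a Pearson r from 0.822 (betaTry) to 0.974 (epsilonTry and zetaTry) with the median trypsin profile over the 7 libraries, a profile that each member is itself part of. That median lay at 0.55, -0.05 and -0.53 log2 units in batch 2 at 10%, 20% and 40% and between -0.14 and 0.18 in batch 1, so the values rest mainly on the 3 libraries of batch 2. Among 4758 features with a mean of at least 10 CPM, the most alike of the others were CG4053 (r = 0.995), the protease gene CG31265 (0.992), the copper transporter gene Ctr1B (0.991), the splicing factor gene snf (0.989) and CG8209 (0.989). CG4053 stood at 43.6, 19.5 and 8.07 CPM in batch 2 at 10%, 20% and 40% oxygen and at 12.9 to 19.5 CPM in batch 1. Ctr1B stood at 208, 107 and 74.2 CPM in batch 2 and at 42.8 to 54.0 CPM in batch 1. These likenesses describe 7 libraries that share 2 batches.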

How the data were processed

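Per the labels' protocols, midgut RNA was made into strand-specific DNBSEQ libraries. The authors deposited 1 transcript table per library with expected counts (estimated reads), TPM and lengths, per the file headers. The submitters' processing notes name STAR 2.7.11b as well as Salmon 1.10.3. Neither settings nor a build is stated there; all 41539 transcript lengths match Ensembl BDGP6.54.

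Expected counts and TPM were summed per gene and counts rounded. The main test was edgeR 4.0.16 (R 4.3.3) with TMM, filterByExpr and batch as covariate, on 6 libraries for 10% against 20% and on all 7 for 40%, whose lone library is assumed to vary like the others. Calls need a Benjamini-Hochberg adjusted p below 0.05 over all features. SE and intervals come from the test statistic. DESeq2 1.42.0 and limma 3.58.1 were alternatives, and the procedures were tested on simulated data. 3 counts, the detection floor, are 0.135 to 0.156 CPM before TMM scaling.

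Same-numbered libraries share a batch in the labels, and their deviations from group means correlated at 0.504, 0.543 and 0.794. Differently numbered libraries of batch 1 did so as well (0.514 and 0.598), and within batch 1 number 1 did not pair (-0.0489). Batch therefore stands in the main fit.

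Members, gene lists and markers were chosen with earlier results of these data known. Named genes are the 10 members, their 3 neighbours, up to 3 called genes per list, direction and comparison, of which the text gives some, and the 5 most alike.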

Additional observations from a re-analysis of the deposited data

How the results depend on the processing

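Under every alternative run for 10% against 20% oxygen, 0 trypsins were called, and the replicate block, run for this comparison, called 0 trypsins and 0 features as well. Features called there were 0 by edgeR, 124 by DESeq2 and 1 by limma voom. At 40% against 20% edgeR called 319 features, DESeq2 972 with 4 trypsins, limma on log2(TPM + 1) 1106 (85 higher, 1021 lower, against 142 and 177) with 5 trypsins, and the fit with no batch term 1. At 40% against 10% the counts were 117 by edgeR, 4 with DESeq2 size factors (2 higher, 2 lower, against 45 and 72), 814 by DESeq2 with 5 trypsins, 193 with no filter, 1089 on the TPM scale (50 higher, 1039 lower) with 5 trypsins, and 1 with no batch term. Leaving out 1 library gave 0 to 69 features at 40% against 20% and 0 to 56 against 10%, with 0 trypsins each time. On the TPM scale the median of all features was -0.23 and -0.22 in these comparisons. The batch comparison had 2659 features higher and 2498 lower, and 769 and 6917 on the TPM scale.

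Signs of uncalled trypsins at 10% against 20% turned. In batch 1 alone gammaTry stood at -0.42, epsilonTry at -0.04, zetaTry at -0.20, iotaTry at -0.12 and lambdaTry at -0.21. With no batch term gammaTry was at -0.09, and deltaTry was at 0.08 by limma voom and 0.01 with close copies summed. Leaving out 1 library gave -0.04 to 0.10 for alphaTry, -0.01 to 0.05 for betaTry, -0.42 to 0.68 for gammaTry, -0.44 to 0.38 for deltaTry, -0.04 to 0.27 for epsilonTry, -0.20 to 0.22 for zetaTry, -0.12 to 0.38 for iotaTry and -0.21 to 0.14 for lambdaTry. At 40% against 20% with no batch term zetaTry was at 0.71, iotaTry at 0.18 and lambdaTry at 0.26, and against 10% zetaTry at 0.29 and lambdaTry at 0.11, with -0.68 to 0.02 for lambdaTry when 1 library was left out. In batch 2 against batch 1 the TPM scale put etaTry at -1.14, iotaTry at -0.42 and lambdaTry at -0.34. The batch by oxygen term was called by DESeq2 for 2 trypsins, and for alphaTry it was -0.01 by DESeq2 and with its size factors, -0.02 with no filter and -0.00 by limma voom, against 0.00. The cause of these turns was not tested.

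The summed trypsin share, as a log2 ratio, was -0.67 for 40% to 20% in batch 2, -0.99 as a share of all counts and -1.12 on TPM. For 40% to 10% it was -0.65, -1.08 and -1.16, and for 10% to 20% in batch 2 -0.02, 0.09 and 0.04. Summed TMM-scaled CPM gave -0.59 for 40% to 20%, -0.75 for 40% to 10% and 0.15 for 10% to 20% in batch 2. One library at 40% and 3 in batch 2 limit all of these values.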
